A study of Homo sapiens with 8 samples.

Results

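The genes described here encode the chaperones, folding enzymes and degradation factors of the endoplasmic reticulum (ER), together with the sensors that control them. They were chosen by name: 37 gene symbols were listed, and 35 of them matched a row among the 26830 gene symbols of the deposited table. SELK and VIMP are older symbols for the selenoprotein genes SELENOK and SELENOS, and the table carries the older names. The listed names ERO1L and ERO1LB matched no row, so their current symbols ERO1A and ERO1B are given beside the 35 genes and are not counted among them. All 35 passed the filter on low values, at least 1 TPM (a length-scaled share of a library's transcripts) in 2 or more libraries, as did 14302 genes in all.

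Proteins of the secretory pathway enter the ER through the SEC61 channel and fold there with the help of HSPA5 (BiP), HSP90B1 (GRP94), lectin chaperones that hold glycoproteins, and enzymes that make and shuffle disulfide bonds. Proteins that fail to fold are trimmed of mannose, passed to the membrane ubiquitin ligase SYVN1 (HRD1) and its partner SEL1L, and pulled out to the proteasome, a route called ER-associated degradation (ERAD). When unfolded proteins accumulate, the sensors ERN1 (IRE1), EIF2AK3 (PERK) and ATF6 start the unfolded protein response, in which spliced XBP1 and cleaved ATF6 raise the transcription of many of these genes. In myeloid cells this machinery serves the production of granule and surface proteins.

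Polyadenylated RNA was sequenced in NOMO-1 and MOLM-13, human acute myeloid leukaemia cell lines with an MLL fusion gene, after lentiviral delivery of a short hairpin RNA and puromycin selection. Each line had 2 control libraries with a non-silencing hairpin (shNS) and 2 libraries with a hairpin against ALKBH5 (shALKBH5), so n = 2 in each of the 4 groups, and all groups carried a hairpin virus. ALKBH5 is an enzyme that removes the N6-methyladenosine mark from RNA. A single ALKBH5 hairpin, numbered #1, was used in both lines. Selection lasted 4 days in the design text and 1 week in the sample protocol, and that protocol names a virus against FTO and drug treatments that no sample's own labels carry. No label states that the libraries of a group were grown separately, so p-values measure the spread between these libraries only, which may be technical.

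The knockdown was visible in every library: ALKBH5 was at 70.4 and 71.8 TPM in the NOMO-1 controls against 15.1 and 14.2 TPM after knockdown, and at 45.7 and 45.8 TPM in the MOLM-13 controls against 9.45 and 7.35 TPM. Sequencing depth cannot be read from TPM. Library pairs were close in 3 groups and further apart in MOLM-13 shALKBH5: among genes averaging 10 TPM or more, the SD of the difference between paired libraries was 0.119 in the control pair and 0.177 in the knockdown pair of NOMO-1, and 0.162 and 0.598 in those of MOLM-13, on the log2 scale. All 8 myeloid markers checked (CD33, SPI1, PTPRC, ITGAM, CD68, LYZ, CSF1R and CEBPA) were present. Their summed level was 1430 and 1460 TPM in the NOMO-1 controls, 3170 and 3130 TPM after knockdown, 10100 and 9480 TPM in the MOLM-13 controls and 20500 and 13200 TPM after knockdown, with lysozyme (LYZ) the largest single contributor in every library. The 8 markers did not move together. By the test used below (limma, adjusted p under 0.05), 3 were higher, 2 lower and 3 did not pass in each line. Over all genes tested, 28.6% were higher and 15% lower in NOMO-1, and 10.6% and 31.2% in MOLM-13. The median log2 fold change of the markers was 0.15 in NOMO-1 and 0.47 in MOLM-13. Summed over 7 B cell and plasma cell markers the level was between 4.25 and 8.86 TPM, with MS4A1 at 0 in all 8 libraries and SDC1 at most at 0.03 TPM. Summed T cell markers reached at most 8.63 TPM, epithelial markers 2.34 TPM and fibroblast markers 0.92 TPM. Haemoglobin beta (HBB) was at 14.03 TPM in MOLM-13 shALKBH5 replicate 3 and listed at 0 in the other libraries. The part of these marker differences in the results below was not tested. In cultures measured in bulk, fewer cells of a kind and less RNA per cell cannot be told apart.

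Several of the genes are textbook targets of the unfolded protein response, and the DNA letters through which ATF6 and XBP1 act on them lie just upstream of the transcription start. RefSeq promoters (GRCh38.p14, 250 bases before to 50 after the start) were found for 32 of the 35 genes, 39 promoters in all, and 3 motifs were searched on both strands. The ER stress response element (ERSE) was read as CCAAT, then any 9 bases, then CCACG. ERSE-II was read as ATTGG, any base, then CCACG, and the XBP1 site as TGACGTGG, which can overlap ERSE-II. ERSE was found in 27 of 34796 promoters (0.0776%) and in 9 of the 39 promoters here (23.1%), which belong to 7 genes. The larger set includes the promoters of these genes, and the 9 count a shared CANX element once per overlapping promoter. Since textbook targets are among the genes chosen, a higher share of these motifs is no independent result. ERSE-II was found in 19 of all promoters (0.0546%) and in 3 of the 39 (7.69%). The XBP1 site was found in 255 of all promoters (0.733%) and in 2 of the 39 (5.13%), those of DNAJC10 and HYOU1. The stretches below carry the elements with flanking bases, read on the strand of the gene, and capitals mark each whole element, spacer included, in either orientation.
HSPA5, chr9:125241376-125241424, minus strand: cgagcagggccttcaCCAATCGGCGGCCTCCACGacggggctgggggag
HSP90B1, chr12:103930201-103930354, plus strand, 2 elements: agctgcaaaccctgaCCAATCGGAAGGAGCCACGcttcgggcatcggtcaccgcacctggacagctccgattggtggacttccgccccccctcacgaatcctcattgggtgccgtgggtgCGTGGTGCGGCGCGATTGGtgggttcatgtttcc
CRELD2, chr22:49918539-49918587, plus strand: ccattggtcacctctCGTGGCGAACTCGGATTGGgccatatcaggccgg
HERPUD1, chr16:56932010-56932050, plus strand: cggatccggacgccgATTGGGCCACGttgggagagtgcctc
SDF2L1, chr22:21642099-21642139, plus strand: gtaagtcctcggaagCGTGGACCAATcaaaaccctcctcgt
CALR, chr19:12938369-12938417, plus strand: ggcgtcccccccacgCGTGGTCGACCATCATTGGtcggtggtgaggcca
CANX, chr5:179698763-179698811, plus strand: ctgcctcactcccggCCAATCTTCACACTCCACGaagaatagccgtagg
XBP1, chr22:28800588-28800636, minus strand: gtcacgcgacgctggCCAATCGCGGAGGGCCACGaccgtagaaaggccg

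The first 5 of these genes rose in NOMO-1 after ALKBH5 knockdown, while CALR, CANX and XBP1, which carry an ERSE as HSPA5, HSP90B1 and CRELD2 do, did not pass the test there. PDIA6 has an ERSE in 1 of its promoters and HYOU1 has 2 ERSE-II elements, 1 of which overlaps its XBP1 site, and neither passed the NOMO-1 test. In total 5 of 11 genes with at least 1 exact match rose in NOMO-1, and 18 of 21 genes without an exact match in the stretch searched did. CANX has 4 promoters in the table, of which 3 overlap and share the stretch shown. A match describes these letters only. Inexact or more distant sites were not searched, so the lack of a match does not show that a gene lacks the element.

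ALKBH5 knockdown in NOMO-1 raised most of the ER genes. With limma on log2(TPM + 1) and a Benjamini-Hochberg adjusted p under 0.05, 25 of the 35 were higher, 1 was lower and 9 did not pass. Of all genes tested, 28.6% were called higher and 15% lower in this comparison. The median log2 fold change of the 35 was 0.97, against 0.16 over all genes tested. Of the 35, 17 passed and at least doubled on that scale, as did 1391 of the 14302 genes tested. Summed, the 35 genes made up 0.999% and 1.01% of all TPM in the controls and 1.54% and 1.7% in the knockdown libraries. In 31 of the 35, both knockdown libraries lay above both controls, as they did for 52.1% of all genes tested.

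In MOLM-13 the same genes moved both ways: 9 were higher, 11 were lower and 15 did not pass. Over all genes 10.6% were called higher and 31.2% lower, so the share of lower ER genes was near that of all genes. Their median log2 fold change was -0.07, against -0.18 over all genes. The summed share went from 0.597% and 0.596% to 0.535% and 0.525%. Knockdown libraries lay above both controls for 11 genes and below them for 14, beside 21.3% and 46.2% of all genes. Groups overlapped for 10 of the 35 genes in MOLM-13 and for 2 in NOMO-1, beside 32.5% and 17.4% of all genes. The MOLM-13 counts moved with the settings. When the spread was estimated from MOLM-13 alone, 0 genes were higher and 6 lower with limma, and 7 and 11 at an unadjusted p under 0.05, beside 2.68% and 9.09% of all genes by adjusted p. The counts were 0 higher and 7 lower without shNS replicate 1 (all genes 3.75% and 14.9%) and 2 and 7 without shNS replicate 3 (4.36% and 16%). They were 10 and 16 without shALKBH5 replicate 1 (14% and 52%) and 14 and 11 without shALKBH5 replicate 3 (23.4% and 34.7%). Scaled by median of ratios, the MOLM-13 libraries gave 15 higher and 9 lower, beside 24.1% and 26.4% of all genes. CALR, CANX, PDIA5, SEL1L, EDEM3 and DERL3 were lower in MOLM-13 under every alternative that tested them.

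**Figure D1:**
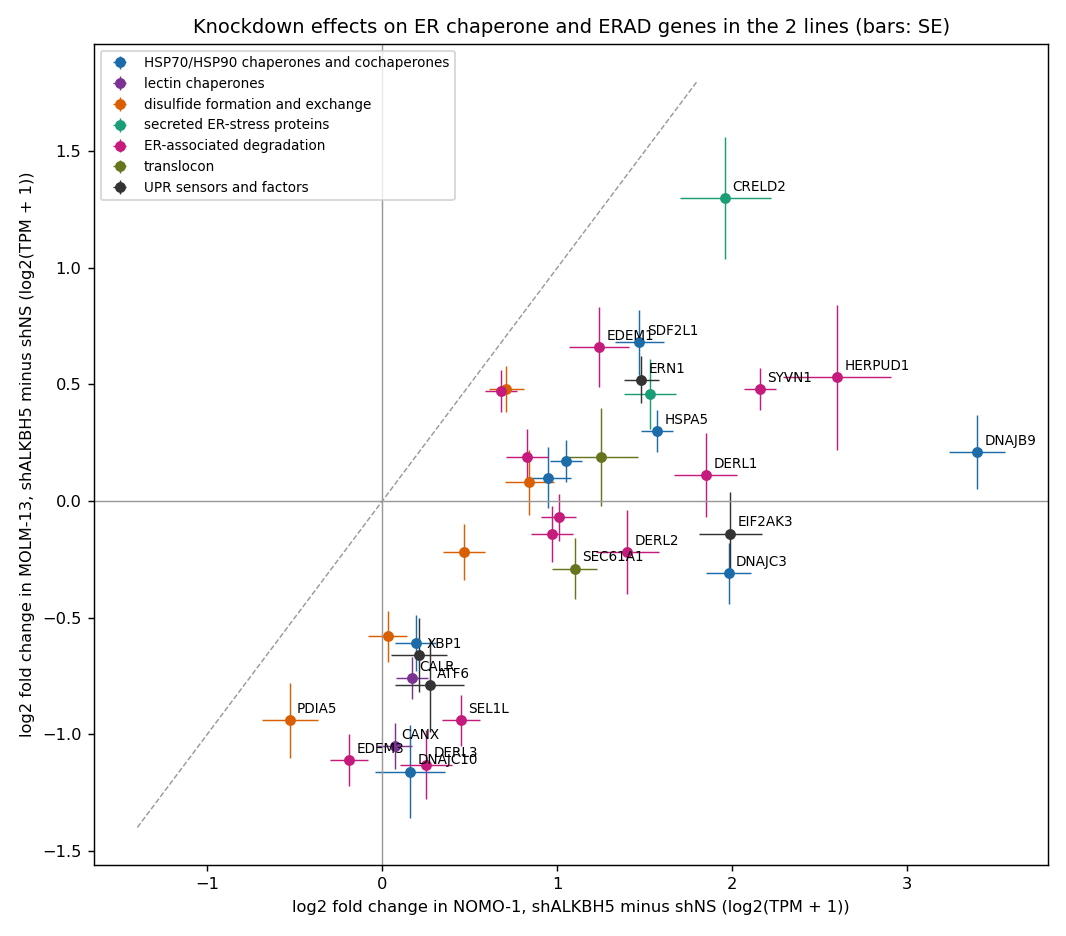
Log2 fold change of the 35 ER genes after ALKBH5 knockdown in NOMO-1 (x axis) and in MOLM-13 (y axis), on the log2(TPM + 1) scale, coloured by role, with standard errors as bars and equal change as a dashed line. Every point lies below the dashed line, since the smallest difference between the lines is 0.21, and DNAJB9 lies furthest to the right at 3.4.

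Of the 8 chaperones and cochaperones of the HSP70 and HSP90 type, 6 rose in NOMO-1 and the other 2 did not pass. Over all genes 28.6% rose and 15% fell there. In MOLM-13 2 rose and 2 fell, beside 10.6% and 31.2% of all genes. With median-of-ratios scaling the MOLM-13 counts were 4 and 1, beside 24.1% and 26.4% of all genes. The roles below can be read against the same shares. DNAJB9 (ERdj4; chromosome 7, 108569568 to 108574850, GRCh38, plus strand) is a J-domain cochaperone of HSPA5 that also holds the sensor ERN1 in check. It was at 12.02 and 12.84 TPM in the NOMO-1 controls against 139.15 and 143.05 TPM after knockdown, 11.3 times higher by group mean. No other gene of the 35 rose as far in NOMO-1 (log2 fold change 3.4, SE 0.16, adjusted p = 0.00024). In MOLM-13 it was at 8.19 and 7.64 TPM in the controls against 11.06 and 7.85 TPM after knockdown, so replicate 1 stood above both controls and replicate 3 between them (0.21, SE 0.16, adjusted p = 0.319). It passed as higher there with median-of-ratios (0.48, adjusted p = 0.0028) and quantile scaling (0.57, adjusted p = 0.0012).

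HSPA5 (chromosome 9, 125234853 to 125241330, minus strand), the main HSP70 chaperone of the ER and the carrier of the first ERSE printed above, was already abundant. Its level in NOMO-1 went from 431.94 and 433.17 TPM to 1236 and 1344 TPM, a rise to 2.98 times the control mean (1.57, SE 0.09, adjusted p = 0.00032). MOLM-13 controls held 178 and 176 TPM and knockdown libraries 209 and 229 TPM. The groups did not overlap there either, but the change was smaller (0.3, SE 0.09, adjusted p = 0.0378) and it did not pass without any 1 of the 4 NOMO-1 libraries or either MOLM-13 control. HSP90B1, the HSP90 chaperone of the ER with 2 ERSE matches, was at 692 and 691 TPM in the NOMO-1 controls against 1219 and 1458 TPM after knockdown (0.95, SE 0.13, adjusted p = 0.0021). In MOLM-13 it was at 816.85 and 789.58 TPM against 789.8 and 938 TPM, and the groups overlapped (0.1, adjusted p = 0.57). Reads of HSP90B1 may be shared with its pseudogene copy HSP90B2P, which stood at 1.31 to 4.58 TPM over the 8 libraries.

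DNAJC3, an ER J-domain protein known as an inhibitor of EIF2AK3, was at 92.9 and 90.13 TPM in the NOMO-1 controls against 356 and 374 TPM after knockdown (1.98, SE 0.13, adjusted p = 0.00035). Its MOLM-13 values ran the other way without passing: 38.4 and 38.6 TPM against 35.2 and 27.1 TPM (-0.31, adjusted p = 0.108). DNAJB11 (ERdj3), which delivers unfolded clients to HSPA5, rose from a mean of 211 ± 4.92 to 439 ± 31.2 TPM (SD, n = 2) in NOMO-1 and had means of 76.1 and 85.7 TPM in MOLM-13. Its MOLM-13 change did not pass (0.17, adjusted p = 0.178) but did with median-of-ratios (0.46, adjusted p = 0.0301) and quantile scaling (0.48, adjusted p = 0.0242). SDF2L1, a partner of DNAJB11 with an ERSE-II in its promoter, was at 32.2 and 41.2 TPM in the NOMO-1 controls against 104 and 101.49 TPM after knockdown. It also rose in MOLM-13, from 20.7 and 23.8 TPM to 36.4 and 35.99 TPM (0.68, adjusted p = 0.0103), though not without shNS replicate 1 (adjusted p = 0.0782). The 2 cochaperones that did not pass in NOMO-1 had both knockdown libraries above both controls there, and they fell in MOLM-13. DNAJC10 (ERdj5), a disulfide reductase that opens misfolded proteins for degradation, was at 124.82 and 122.87 TPM against 133 and 144 TPM in NOMO-1, and at 48.7 and 50.9 TPM against 27.2 and 17.4 TPM in MOLM-13 (-1.16, SE 0.2, adjusted p = 0.0054). HYOU1, a large HSP70 relative that helps HSPA5 exchange nucleotide, had means of 139 and 158 TPM in NOMO-1 (0.19, adjusted p = 0.273) and fell from 54.7 to 35.8 TPM in MOLM-13 (-0.61, adjusted p = 0.0108). The HYOU1 decrease did not pass with median-of-ratios scaling (-0.32, adjusted p = 0.238) or without either MOLM-13 control.

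**Figure D2:**
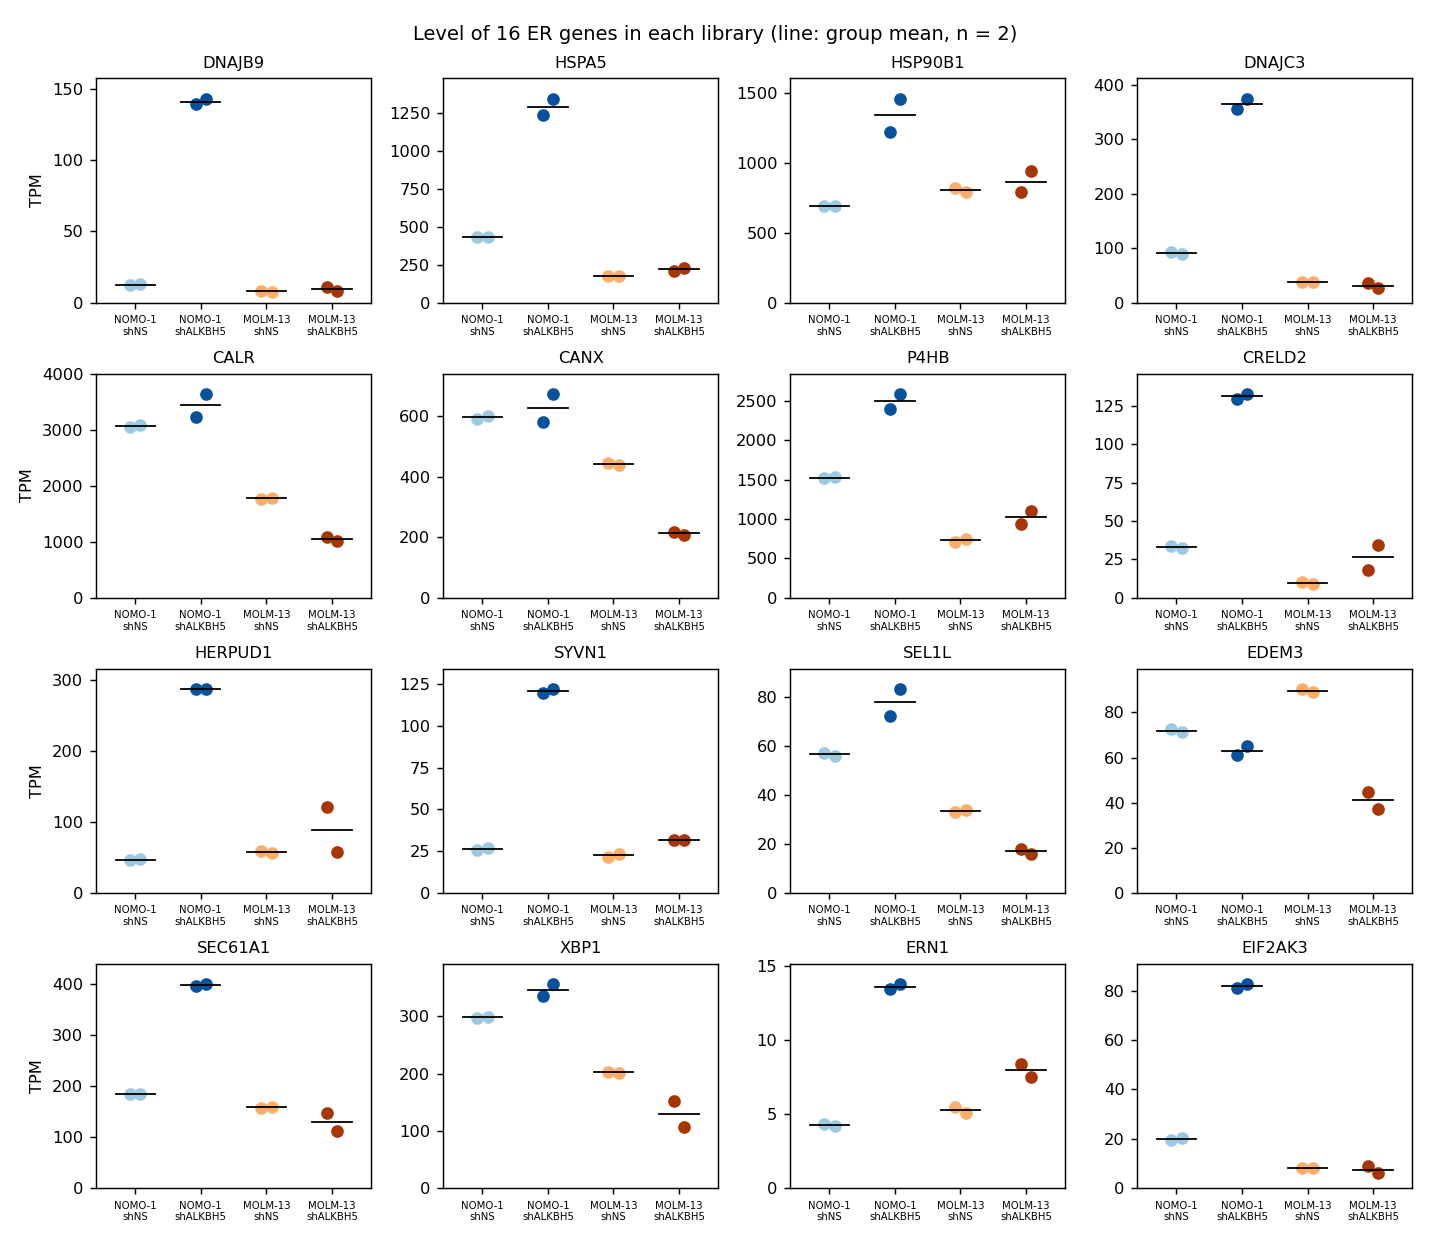
TPM of 16 of the ER genes in each of the 8 libraries, with a line at the mean of the 2 libraries of each group and every y axis starting at 0. DNAJB9, HSPA5, DNAJC3, HERPUD1, SYVN1 and EIF2AK3 stand clear of all other groups in the NOMO-1 knockdown libraries, while CALR, CANX, SEL1L and EDEM3 are lowest in the MOLM-13 knockdown libraries.

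Neither lectin chaperone passed in NOMO-1, and both fell in MOLM-13. CALR (calreticulin), which binds glycoproteins in the ER lumen, had the highest level of the 35 genes in all 4 groups. It was at 3050.44 and 3086 TPM in the NOMO-1 controls against 3245 and 3650.08 TPM after knockdown, which did not pass (0.17, SE 0.09, adjusted p = 0.2) but did with quantile scaling (0.24, adjusted p = 0.0171). In MOLM-13 it fell from 1775 and 1782 TPM to 1081 and 1021 TPM (-0.76, SE 0.09, adjusted p = 0.0017). CANX (calnexin), the membrane-bound counterpart, was at 591 and 602 TPM against 582 and 674 TPM in NOMO-1, where the groups overlapped (0.07, adjusted p = 0.61). Its MOLM-13 level was 445 and 439 TPM in the controls and 216 and 209 TPM after knockdown, a control mean 2.08 times the knockdown mean (-1.05, SE 0.1, adjusted p = 0.00073). Both decreases kept an adjusted p under 0.05 in every alternative, the highest being 0.0447 for CALR and 0.0287 for CANX.

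Of the 5 disulfide isomerases measured under the listed names, 3 rose and 1 fell in NOMO-1, and 1 rose and 2 fell in MOLM-13. With median-of-ratios scaling 0 rose and 1 fell in NOMO-1 (PDIA5), and 1 rose and 1 fell in MOLM-13. Shares over all genes were 28.6% higher and 15% lower in NOMO-1 and 10.6% and 31.2% in MOLM-13. Under that scaling they were 23.7% and 26% in NOMO-1 and 24.1% and 26.4% in MOLM-13. P4HB (protein disulfide isomerase) ranked 2nd in level in both NOMO-1 groups, with 1519 and 1533 TPM in the controls and 2399 and 2589.85 TPM after knockdown (0.71, SE 0.1, adjusted p = 0.0029). It rose in MOLM-13 too, from 714 and 747 TPM to 942 and 1099 TPM (0.48, adjusted p = 0.0133). PDIA4 (ERp72) was at 178 and 184 TPM against 309 and 342 TPM in NOMO-1 (0.84, adjusted p = 0.005), and its MOLM-13 groups overlapped. PDIA3 (ERp57), the isomerase that works with CALR and CANX, rose from a mean of 642 to 892 TPM in NOMO-1 (0.47, adjusted p = 0.0222). Reads of PDIA3 may be shared with the pseudogene PDIA3P1, listed at 18.7 to 94.4 TPM, and how they were divided is not known. PDIA6 (P5) had NOMO-1 means of 536 and 547 TPM (0.03, adjusted p = 0.89) and fell in MOLM-13 from 198 and 194 TPM to 123 and 138 TPM (-0.58, adjusted p = 0.0072). PDIA5, the fifth isomerase, was the only 1 of the 35 genes lower in both lines (2.86%, beside 10.4% of all genes tested). The count was 2 with either scaling and 0 with no filter, and it also moved when single libraries were left out. PDIA5 was at 47.3 and 44.3 TPM against 26.6 and 36.95 TPM in NOMO-1 (-0.53, SE 0.16, adjusted p = 0.036) and at 24.5 and 22.9 TPM against 11.8 and 12.01 TPM in MOLM-13 (-0.94, SE 0.16, adjusted p = 0.0054).

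Several of these calls rest on the scaling or on single libraries. With median-of-ratios scaling the NOMO-1 adjusted p was 0.128 for PDIA3, 0.0667 for PDIA4 and 0.0763 for P4HB. Leaving out NOMO-1 shALKBH5 replicate 2 moved PDIA5 in NOMO-1 to -0.3 (adjusted p = 0.146), and it did not pass without any 1 of the 4 control libraries either. PDIA3 did not pass in NOMO-1 without shNS replicate 1, shNS replicate 3 or shALKBH5 replicate 3. In MOLM-13, P4HB and PDIA6 did not pass without either control, and PDIA6 was at -0.29 (adjusted p = 0.206) with median-of-ratios and -0.33 (adjusted p = 0.123) with quantile scaling.

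The ER oxidases that recharge the isomerases went opposite ways in NOMO-1. ERO1A was at 96.8 and 100.79 TPM in the NOMO-1 controls against 48.6 and 55.4 TPM after knockdown (-0.92, SE 0.17, adjusted p = 0.0069), and it fell in MOLM-13 from 42.7 and 39.3 TPM to 9.5 and 6.49 TPM (-2.24, SE 0.17, adjusted p = 4e-04). ERO1B was at 6.09 and 6.17 TPM against 15.3 and 19.05 TPM in NOMO-1 (1.34, adjusted p = 0.00069) and at 13.1 and 13.4 TPM against 8.89 and 8.47 TPM in MOLM-13 (-0.56, adjusted p = 0.0139). ERO1A did not pass in NOMO-1 without shNS replicate 3 (adjusted p = 0.0513) or shALKBH5 replicate 2 (adjusted p = 0.0558), nor ERO1B in MOLM-13 without either control (0.0776 and 0.084). ERO1B in MOLM-13 was at -0.29 (adjusted p = 0.108) with median-of-ratios and -0.2 (adjusted p = 0.278) with quantile scaling.

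Both secreted ER-stress proteins rose in both lines. CRELD2, whose promoter carries an ERSE, was at 33.6 and 32.4 TPM in the NOMO-1 controls against 129 and 133 TPM after knockdown (1.96, SE 0.26, adjusted p = 0.0021). In MOLM-13 it was at 10.04 and 9.23 TPM against 18.4 and 34.6 TPM, the largest rise of the 35 genes there but with replicates far apart (1.3, SE 0.26, adjusted p = 0.0101). MANF, a protein of the ER lumen that is secreted under calcium loss, was at 222 and 208 TPM against 589 and 656 TPM in NOMO-1 (1.53, SE 0.15, adjusted p = 0.00082). MOLM-13 held 48.2 and 47.3 TPM in the controls and 57 and 76.8 TPM after knockdown (0.46, SE 0.15, adjusted p = 0.0498). Neither MOLM-13 call held without shNS replicate 1 (CRELD2 0.0556, MANF 0.168) or shNS replicate 3 (0.0639 and 0.183), and that of MANF did not hold without any 1 of the NOMO-1 libraries.

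ERAD formed the largest group, and 10 of its 12 genes rose in NOMO-1, beside 28.6% of all genes, with EDEM3 and DERL3 not passing. In MOLM-13 3 rose (SYVN1, EDEM1 and EDEM2), 3 fell (SEL1L, EDEM3 and DERL3) and 6 did not pass. Over all genes 10.6% rose and 31.2% fell there. With median-of-ratios scaling 6 rose and 3 fell in MOLM-13, beside 24.1% and 26.4% of all genes. HERPUD1 (chromosome 16, 56932048 to 56944863, plus strand), a membrane protein that assembles the SYVN1 complex and has an ERSE-II, was at 46.07 and 46.95 TPM in the NOMO-1 controls against 286.97 and 286.92 TPM after knockdown. The NOMO-1 increase was 6.17 times by mean (2.6, SE 0.31, adjusted p = 0.0014), second to DNAJB9. In MOLM-13, shALKBH5 replicate 1 was at 120.75 TPM and replicate 3 at 57.3 TPM, against 58.3 and 56.2 TPM in the controls. Only 1 of the MOLM-13 knockdown libraries thus stood apart, and the change did not pass (0.53, SE 0.31, adjusted p = 0.216). It passed with median-of-ratios (0.82, adjusted p = 0.0166) and quantile scaling (0.85, adjusted p = 0.0117), and it was 1.06 without replicate 3.

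SYVN1, the ubiquitin ligase at the centre of the route, was at 25.7 and 27.1 TPM against 120 and 122 TPM in NOMO-1 (2.16, SE 0.09, adjusted p = 0.00024). Its MOLM-13 change was small but even, from 21.3 and 23.6 TPM to 31.5 and 31.6 TPM (0.48, adjusted p = 0.00895). SEL1L, the adaptor that holds SYVN1 in its complex, rose in NOMO-1 and fell in MOLM-13. It was the only 1 of the 35 genes called in opposite directions (2.86%). Of all genes tested, 3.78% rose in NOMO-1 and fell in MOLM-13, and 0.35% did the reverse. The count rising in NOMO-1 and falling in MOLM-13 was 3 with quantile and 0 with median-of-ratios scaling. It also moved when single libraries were left out. For SEL1L the NOMO-1 controls were at 57.3 and 56.01 TPM and the knockdown libraries at 72.4 and 83.3 TPM (0.45, SE 0.11, adjusted p = 0.0176). MOLM-13 controls were at 33 and 33.84 TPM and knockdown libraries at 17.9 and 16.02 TPM (-0.94, SE 0.11, adjusted p = 0.0015). The MOLM-13 decrease of SEL1L passed in every alternative. Its NOMO-1 increase did not pass with median-of-ratios scaling (0.23, adjusted p = 0.0774) or without NOMO-1 shNS replicate 1, shNS replicate 3 or shALKBH5 replicate 3. The SYVN1 call in MOLM-13 did not pass without shNS replicate 1 (adjusted p = 0.0784).

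The mannosidase-like proteins EDEM1, EDEM2 and EDEM3, which mark glycoproteins for degradation by trimming mannose, did not move as a group. EDEM1 was at 110.43 and 112 TPM against 258 and 269 TPM in NOMO-1 (1.24, SE 0.17, adjusted p = 0.0024) and at 114 and 109 TPM against 214 and 147 TPM in MOLM-13 (0.66, adjusted p = 0.0241). EDEM2 rose from a mean of 79.6 to 128 TPM in NOMO-1 (0.68, adjusted p = 0.0019) and from 20.9 to 29.3 TPM in MOLM-13 (0.47, adjusted p = 0.0082). EDEM3 was at 72.5 and 71.3 TPM against 61 and 65 TPM in NOMO-1 (-0.19, adjusted p = 0.217), and fell in MOLM-13 from 90.37 and 88.8 TPM to 44.8 and 37.4 TPM (-1.11, SE 0.11, adjusted p = 0.0009). So the members with the same enzymatic role included 2 that rose in both lines and 1 that fell in MOLM-13. EDEM3 passed as lower in NOMO-1 as well with median-of-ratios (-0.4, adjusted p = 0.0023, limma) and quantile scaling (-0.3, adjusted p = 0.00968, limma). So it did with each line fitted alone (-0.19, adjusted p = 0.0305, limma). The MOLM-13 increases of EDEM1 and EDEM2 did not pass without either MOLM-13 control, and that of EDEM1 also not without any 1 of the NOMO-1 libraries. OS9, a lectin that reads the trimmed glycan, rose from 136 to 244 TPM in NOMO-1 (0.83, adjusted p = 0.0029), and its MOLM-13 means were 191 and 219 TPM (0.19, adjusted p = 0.265). OS9 passed as higher in MOLM-13 with median-of-ratios (0.48, adjusted p = 0.000675) and quantile scaling (0.39, adjusted p = 0.000968).

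The derlins are membrane proteins through which substrates leave the ER. DERL1 was at 67.8 and 71.1 TPM in the NOMO-1 controls against 255 and 252 TPM after knockdown (1.85, SE 0.18, adjusted p = 0.00074). DERL2 rose from a mean of 19.2 to 52.1 TPM in NOMO-1 (1.4, adjusted p = 0.0019). Neither passed in MOLM-13, where DERL1 was at 42.46 and 42.56 TPM against 55.9 and 37.8 TPM, so that replicate 1 stood above the controls and replicate 3 below them. DERL1 passed as higher there with median-of-ratios (0.4, adjusted p = 0.0055) and quantile scaling (0.44, adjusted p = 0.0028). DERL3, the least abundant of the 35 genes in all 4 groups, was at 3.88 and 3.84 TPM against 4.33 and 5.26 TPM in NOMO-1 (0.25, adjusted p = 0.23). It fell in MOLM-13 from 2.45 and 2.4 TPM to 0.4 and 0.76 TPM (-1.13, SE 0.15, adjusted p = 0.0023), a fold change that the added pseudocount of 1 understates. Both selenoproteins that tie the derlins to the cytosolic extraction machinery rose in NOMO-1 and did not pass in MOLM-13. SELK was at 106.33 and 107.55 TPM against 214 and 218 TPM in NOMO-1 (1.01, SE 0.1, adjusted p = 0.00073) and at 34.5 and 31.3 TPM against 32.7 and 29.9 TPM in MOLM-13. VIMP doubled in NOMO-1 from a mean of 19.8 to 39.7 TPM (0.97, adjusted p = 0.0017).

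The SEC61 channel admits new proteins into the ER, and both of its listed subunits rose in NOMO-1. SEC61A1, the pore itself, was at 183 and 185 TPM against 395 and 399 TPM (1.1, SE 0.13, adjusted p = 0.0014). SEC61B, a small subunit, was at 200.37 and 211 TPM against 498 and 485 TPM (1.25, SE 0.21, adjusted p = 0.0043). In MOLM-13 SEC61A1 was at 156 and 159 TPM against 147 and 112 TPM (-0.29, adjusted p = 0.124). SEC61B was at 173 and 192 TPM there against 261 and 165 TPM (0.19, adjusted p = 0.512), with the knockdown libraries on either side of the controls. SEC61B passed as higher in MOLM-13 with median-of-ratios (0.48, adjusted p = 0.0116) and quantile scaling (0.39, adjusted p = 0.0258).

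The sensors split as well. EIF2AK3 (PERK; chromosome 2, 88556741 to 88627576, minus strand), the kinase that slows translation under ER stress, was at 19.5 and 20.4 TPM in the NOMO-1 controls against 81.2 and 82.7 TPM after knockdown (1.99, SE 0.18, adjusted p = 0.00062). In MOLM-13 it was at 8.2 and 8.03 TPM against 8.99 and 5.86 TPM, and the groups overlapped (-0.14, adjusted p = 0.573). ERN1 (IRE1), the nuclease that splices XBP1, was low in every group and rose in both lines. It was at 4.34 and 4.15 TPM against 13.4 and 13.8 TPM in NOMO-1 (1.48, SE 0.1, adjusted p = 0.00037), and at 5.44 and 5.04 TPM against 8.35 and 7.52 TPM in MOLM-13 (0.52, SE 0.1, adjusted p = 0.0099).

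The 2 transcription factors of the response did not pass in NOMO-1 and fell in MOLM-13. XBP1 was at 297.47 and 299 TPM against 336 and 356 TPM in NOMO-1 (0.21, SE 0.16, adjusted p = 0.328) and at 204 and 200.1 TPM against 151 and 107 TPM in MOLM-13 (-0.66, SE 0.16, adjusted p = 0.0188). A gene-level TPM adds the spliced and unspliced forms of XBP1, so it does not measure splicing. ATF6 was at 10.2 and 10.32 TPM against 12.4 and 12.7 TPM in NOMO-1 (0.27, adjusted p = 0.317) and at 35.6 and 33.8 TPM against 24.7 and 15.7 TPM in MOLM-13 (-0.79, SE 0.2, adjusted p = 0.0208). Fitted on the NOMO-1 libraries alone, both passed as higher there, XBP1 with an adjusted p of 0.0194 and ATF6 with 0.0241, and so they did without either MOLM-13 knockdown library. The MOLM-13 calls of XBP1, ATF6 and ERN1 did not pass without either MOLM-13 control.

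**Figure D3:**
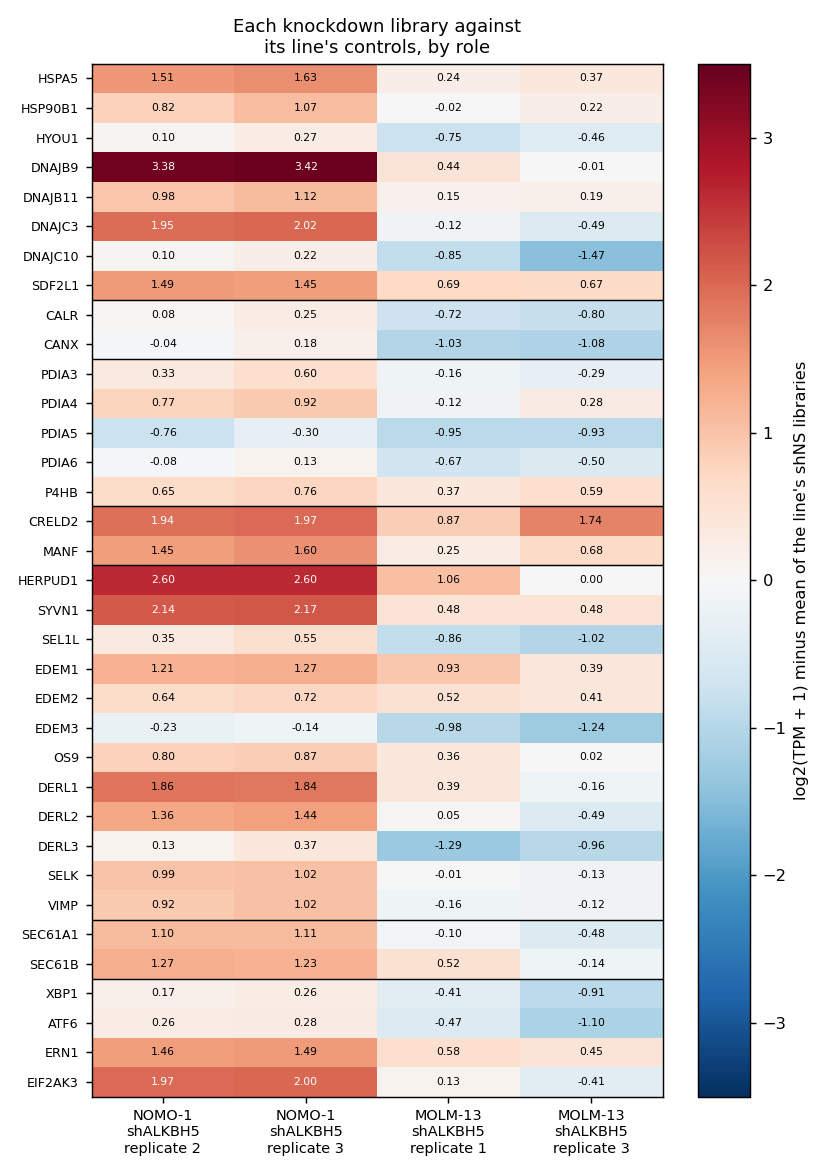
Each knockdown library minus the mean of its line's 2 controls, on the log2(TPM + 1) scale, for the 35 ER genes ordered by role (black lines separate the roles). NOMO-1 replicates 2 and 3 are close to each other, with 31 and 33 genes above the controls. MOLM-13 replicates 1 and 3 (17 and 13 genes above) differ for HERPUD1, EDEM1, DERL1 and SEC61B. Over all genes tested the median was 0.14 and 0.17 in these NOMO-1 libraries and -0.06 and -0.33 in these MOLM-13 libraries.

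Whether the knockdown effect differed between the lines was tested directly, as the NOMO-1 effect minus the MOLM-13 effect. The difference passed above 0 for 30 of the 35 genes and below 0 for 0 (limma, with 30 and 0 also at an unadjusted p under 0.05). Over all genes tested the shares were 29.7% and 4.9%. A difference above 0 means a more positive change in NOMO-1, which includes genes that changed only by falling in MOLM-13. The median difference was 1.05 for the 35 genes and 0.42 over all genes tested. DNAJB9 differed most (3.19, SE 0.22, adjusted p = 0.0017), then DNAJC3 (2.29, SE 0.19, adjusted p = 0.0021), EIF2AK3 (2.13, SE 0.25, adjusted p = 0.0035) and HERPUD1 (2.07, SE 0.44, adjusted p = 0.0165). HSPA5 (1.27), SYVN1 (1.68) and SEL1L (1.39) were among those that differed as well. The 30 hold 4 combinations of calls. In 15 the gene rose in NOMO-1 and did not pass in MOLM-13, as SEC61A1 and EIF2AK3 did, a combination of calls found in 42.9% of the 35 and 18.5% of all genes. In 9 it did not pass in NOMO-1 and fell in MOLM-13, as CANX and EDEM3 did, a combination found in 25.7% of the 35 and 17% of all genes. Another 5 of the 30, namely HSPA5, SDF2L1, MANF, SYVN1 and ERN1, rose in both lines and more in NOMO-1, and SEL1L was called in opposite directions. These combinations moved with the settings. The count of 15 became 7 with median-of-ratios scaling, 9 with quantile scaling or without MOLM-13 shALKBH5 replicate 1, 24 without MOLM-13 shNS replicate 1 and 26 with each line fitted alone. The count of 9 became 4 with quantile scaling, with each line fitted alone or without either MOLM-13 knockdown library. Of all 35 genes 9 (25.7%) were higher in both lines, beside 6.33% of all genes tested. The count was 0 with each line fitted alone, 14 with median-of-ratios scaling and 15 with quantile scaling. It also moved when single libraries were left out.

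The remaining 5 genes gave no call of a difference: PDIA5, P4HB, CRELD2, EDEM1 and EDEM2. Their differences were 0.41, 0.23, 0.65, 0.58 and 0.21, with adjusted p from 0.113 for EDEM1 to 0.265 for P4HB. The count of 30 depends on the fit. With median-of-ratios scaling, which sets the median of all genes near 0 in both lines, 18 genes passed above 0 and 0 below it. The shares over all genes were then 18.5% and 17.1%. The count of 30 fell without any single NOMO-1 library or either MOLM-13 control, and it rose without either MOLM-13 knockdown library. The share of all genes called above 0 moved the same way each time. With any single library left out, the median difference of the listed ER genes stayed between 0.97 and 1.09. Over all genes the median difference then lay between 0.27 and 0.57. HSPA5, DNAJB9, DNAJC3, CANX, SYVN1, SEL1L, DERL1, DERL2, DERL3, SELK, SEC61A1 and EIF2AK3 passed in every alternative that tested them.

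The lines also differed before any knockdown. In control libraries 25 of the 35 genes were higher in NOMO-1 than in MOLM-13 and 3 were lower, beside 40.6% of all genes called higher and 19.2% called lower. The median difference was 0.74 for the 35 genes and 0.29 over all genes. These are the same control libraries that enter the knockdown comparisons. MANF stood 4.51 times higher in NOMO-1 controls by mean (log2 difference 2.15, SE 0.15), EDEM2 3.8 times (1.88) and CRELD2 3.43 times (1.68). HSPA5 was at a mean of 433 ± 0.87 TPM (SD) in NOMO-1 controls and 177 ± 1.19 TPM in MOLM-13 controls (1.28, adjusted p = 5.6e-05). ATF6 stood out in the other direction, 3.38 times higher in MOLM-13 (-1.66, adjusted p = 0.00053), and EDEM3 (-0.31) and OS9 (-0.48) were also lower in NOMO-1. The count of 3 lower genes became 6 with median-of-ratios or quantile scaling, beside 31.5% and 31.9% of all genes called lower. It fell without any single control library and rose without either MOLM-13 knockdown library, as did the share of all genes called lower. HSP90B1, HERPUD1, SYVN1, EDEM1, SEC61A1, SEC61B and ERN1 did not pass between the controls.

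By level, CALR stood first and DERL3 last in each of the 4 groups, and P4HB, HSP90B1, CANX and PDIA3 filled the next places in the NOMO-1 controls. TPM is scaled by transcript length, so genes can be ordered within a library. DNAJB9 moved from place 32 to place 21 of 35 in NOMO-1 after knockdown, HERPUD1 from 24 to 15 and DNAJC3 from 19 to 12. ERN1 stayed at place 34 and then 33, although its mean rose 3.2 times.

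The rest of the ER machinery was examined with gene lists that share no name with the 35 genes, each list giving first the counts and median for NOMO-1 and then those for MOLM-13. SEC62 and SEC63 stand in 2 of these lists each. ER entry, made up of signal recognition, translocon partners and signal peptidase, had 23 tested genes. Of them 15 rose and 1 fell in NOMO-1 (median log2 fold change 0.67), and 2 rose and 12 fell in MOLM-13 (median -0.71). SSR4, a subunit of the translocon-associated complex, rose in NOMO-1 (0.75) and MOLM-13 (0.43), and TRAM2 rose in NOMO-1 (0.8). SPCS1, a signal peptidase subunit, fell in MOLM-13 (-1.13) and NOMO-1 (-0.67). SRPRB, a subunit of the signal recognition receptor, fell in MOLM-13 (-0.99) and rose in NOMO-1 (0.51). N-glycosylation and glucose trimming had 6 higher and 1 lower of 15 (median 0.26) and then 0 and 6 (median -0.36). MOGS (0.74), a glucosidase, and OST4 (0.68) rose in NOMO-1, and the oligosaccharyltransferase genes OSTC (-1.81) and STT3B (-0.99) fell in MOLM-13. Other ER folding factors had 14 higher and 3 lower of 22 (median 0.61) and then 3 and 8 (median -0.11). FKBP14 (1.9) and PPIB (0.97), prolyl isomerases, rose in NOMO-1, and DNAJC1 (-1.56) and TMX4 (-0.85) fell in MOLM-13.

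Factors for extraction and ubiquitination in ERAD had 13 higher and 2 lower of 28 in NOMO-1 (median 0.53) and 0 and 8 in MOLM-13 (median -0.29). ERLEC1, a lectin like OS9, rose in NOMO-1 from 65.5 and 64.5 TPM to 204 and 225 TPM (1.71), as did the ligase RNF185 (1.2). NGLY1 (-0.98), which strips glycans from extracted proteins, and MARCH6 (-1.1), another ligase, fell in MOLM-13. The branch downstream of EIF2AK3 and ATF4 had 5 higher and 0 lower of 12 in NOMO-1 (median 0.54) and 3 and 3 in MOLM-13 (median -0.18). DDIT3 (CHOP), its transcription factor tied to cell death, rose in both lines, from 38.4 and 45.6 TPM to 186 and 199 TPM in NOMO-1 (2.18) and from 18.9 and 19.07 TPM to 36.3 and 44.02 TPM in MOLM-13 (1.03). SESN2 rose in both lines (1 in NOMO-1, 0.38 in MOLM-13) and CEBPB (1.27) in MOLM-13. Genes for ATF6 and CREB3 processing and NF-Y had 3 higher and 1 lower of 10 in NOMO-1 (median 0.12) and 0 and 6 in MOLM-13 (median -0.37). CREB3, an ER membrane transcription factor related to ATF6, went from 15 and 14 TPM to 94.5 and 90.5 TPM in NOMO-1 (2.59), and the protease gene MBTPS2 rose by 0.61. CREBZF (-0.75) and NFYB (-1.43), a subunit of the factor that binds CCAAT, fell in MOLM-13.

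ER to Golgi transport and retrieval had 14 higher and 2 lower of 22 in NOMO-1 (median 0.79) and 0 and 6 in MOLM-13 (median -0.16). The coat genes SEC23A (1.62) and SEC31A (1.39) rose in NOMO-1 and MCFD2 (-1.02) fell in MOLM-13. KDELR1, a receptor that returns escaped chaperones such as HSPA5 to the ER, fell in both lines, from 261 and 272 TPM to 135 and 135 TPM in NOMO-1 (-0.98) and from 95.7 and 98.98 TPM to 29.5 and 26.7 TPM in MOLM-13 (-1.76). ER-phagy receptors and membrane shaping genes had 8 higher and 1 lower of 13 in NOMO-1 (median 0.65) and 0 and 5 in MOLM-13 (median -0.41). CALCOCO1 (1.4) and FAM134C (1.29) rose in NOMO-1, and REEP5 (-0.81) and CKAP4 (-1.35) fell in MOLM-13. The CKAP4 call was lost without MOLM-13 shNS replicate 1 (-1.33, adjusted p = 0.0673, limma) or replicate 3 (-1.37, adjusted p = 0.0606, limma). Some genes named for 1 line passed in the other line too: PPIB (0.45), ERLEC1 (-0.46) and MBTPS2 (-0.39) in MOLM-13, and TMX4 (0.52), REEP5 (0.43) and CKAP4 (1.01) in NOMO-1. The MOLM-13 calls of SSR4, PPIB, ERLEC1, SESN2 and MBTPS2 were lost without either MOLM-13 control, and those of SESN2 and MBTPS2 also without either NOMO-1 control. In NOMO-1 the calls of SRPRB, REEP5 and CKAP4 were lost without any 1 of the 4 NOMO-1 libraries, those of REEP5 and CKAP4 also without either MOLM-13 control, and that of TMX4 without shNS replicate 3. With median-of-ratios scaling ERLEC1 (-0.17) and MBTPS2 (-0.12) did not pass in MOLM-13, nor TMX4 (0.31) and MBTPS2 (0.39) in NOMO-1. With quantile scaling ERLEC1 (-0.11) and MBTPS2 (-0.03) did not pass in MOLM-13 either. When MOLM-13 was fitted alone, the calls of SSR4, PPIB, ERLEC1, SESN2, MBTPS2, CREBZF, NFYB, REEP5 and CKAP4 there were lost.

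Each list can be read against the 28.6% higher and 15% lower over all genes in NOMO-1 and the 10.6% and 31.2% in MOLM-13. Under median-of-ratios scaling these shares became 23.7% and 26% in NOMO-1 and 24.1% and 26.4% in MOLM-13. With median-of-ratios scaling the MOLM-13 median changed sign for the folding factors (0.18; 8 higher, 7 lower), the EIF2AK3 and ATF4 branch (0.04; 3 and 2) and ER to Golgi transport (0.1; 7 and 6), and came to 0 for extraction and ubiquitination (9 and 7). It was still -0.43 for ER entry (5 and 13) and came to -0.07 for N-glycosylation (1 and 4). The NOMO-1 median of N-glycosylation became 0.04 (6 and 5), and the NOMO-1 median of ATF6 and CREB3 processing became -0.09 (3 and 3). In MOLM-13 at an unadjusted p under 0.05 with limma, higher genes numbered 1 in N-glycosylation, 1 in ATF6 and CREB3 processing and 0 in extraction, ER to Golgi transport and ER-phagy. The EIF2AK3 and ATF4 branch had 0 lower in NOMO-1 on that measure too.

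**Figure D4:**
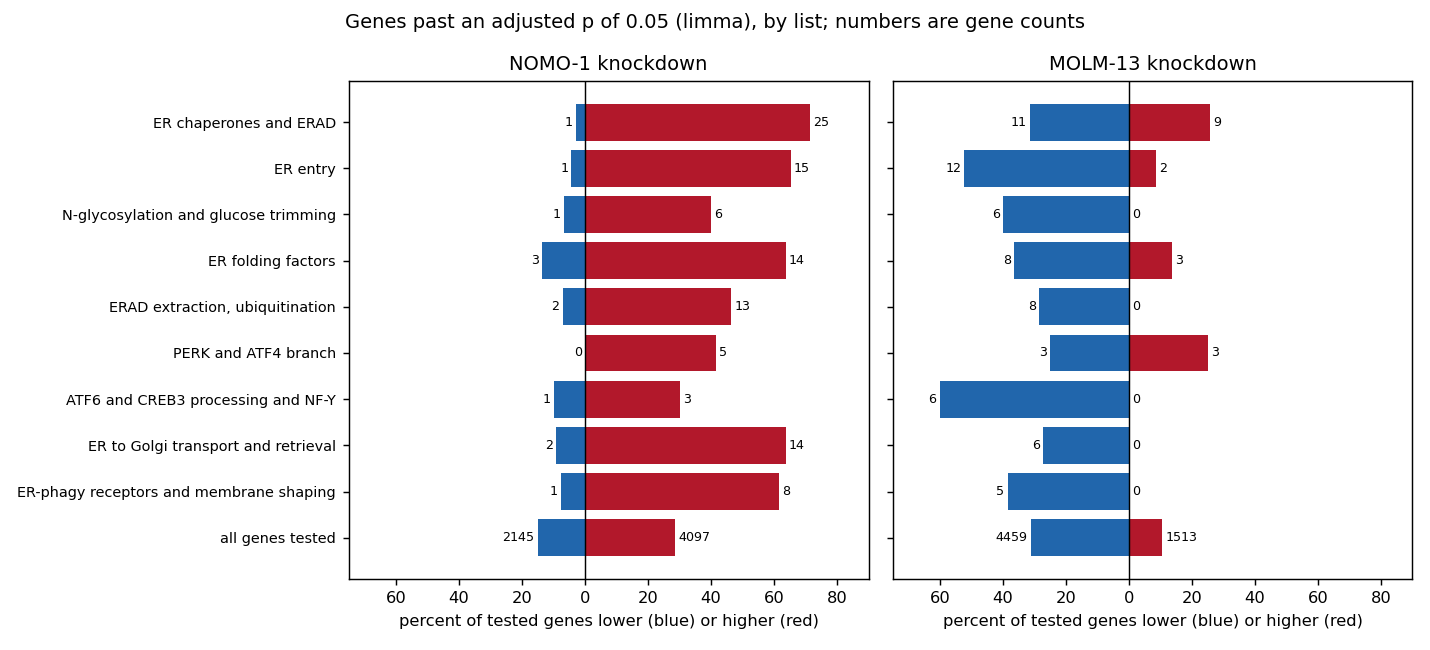
Percent of tested genes called higher (red) or lower (blue) after knockdown at an adjusted p under 0.05 (limma), in the 35 ER chaperone and ERAD genes, 8 other ER gene lists and all genes tested, with gene counts beside the bars. In NOMO-1 the 35 genes have 25 higher and 1 lower and all genes 4097 and 2145. In MOLM-13 they have 9 and 11, and all genes 1513 and 4459.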

How the data were processed

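Values are the TPM that the authors deposited in a single table of gene symbols by 8 libraries. The submitters' processing notes name STAR, RSEM and GRCh38. Tool versions, gene models and strandedness were not given in the sources used here. A TPM is a share of its library and holds no depth. Groups came from sample titles. The 35 genes, the other ER lists and the tests were chosen with earlier results of these data known.

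The 14302 genes that reached 1 TPM in 2 or more libraries were fitted with limma 3.58.1 (R 4.3.3) on log2(TPM + 1): 4 group means, 4 residual and 2.29 prior degrees of freedom, an intensity trend, two-sided tests and Benjamini-Hochberg adjustment over all genes tested (threshold 0.05). A pooled spread serves all groups. Fold changes of low genes are understated. The code was tested on simulated data. The simulated spread left out MOLM-13 shALKBH5, the group whose libraries lay furthest apart, and changes were put into NOMO-1 only. That test therefore does not bear on the MOLM-13 calls or on the difference between the lines. Coordinates come from GENCODE 29 (GRCh38), promoters from RefSeq (GRCh38.p14). Library values are given for 10 fixed genes, the 2 genes of each role with the smallest p in each line, the 5 with the smallest p for the difference, and some further genes named after their values were seen. From each other list the 2 genes with the smallest p past the threshold in each line are named.

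In 15 alternatives, the pseudocount, filter, scaling, fitting of each line alone, a replicate block and the leaving out of each library were changed in turn. A replicate left alone in its group is assumed to vary like the other groups. Protein sequences were not used here.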

Additional observations from a re-analysis of the deposited data

Results flagged for a closer look

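The knockdown effect differed between NOMO-1 and MOLM-13, by the direct limma test of the difference, for 30 of the 35 genes. Values are the NOMO-1 effect minus the MOLM-13 effect in log2 units. Among HSPA5 and its cochaperones the difference was 3.19 for DNAJB9, 2.29 for DNAJC3, 1.32 for DNAJC10, 1.27 for HSPA5, 0.88 for DNAJB11, 0.85 for HSP90B1, 0.79 for HYOU1 and 0.79 for SDF2L1. The lectin chaperones were at 1.12 (CANX) and 0.92 (CALR), and the isomerases at 0.76 (PDIA4), 0.69 (PDIA3) and 0.61 (PDIA6). MANF was at 1.06. In ERAD, HERPUD1 differed by 2.07, DERL1 by 1.74, SYVN1 by 1.68, DERL2 by 1.61, SEL1L by 1.39, DERL3 by 1.37, VIMP by 1.11, SELK by 1.08, EDEM3 by 0.92 and OS9 by 0.64. The translocon subunits SEC61A1 and SEC61B differed by 1.4 and 1.07. Of the sensors and factors, EIF2AK3 was at 2.13, ATF6 at 1.05, ERN1 at 0.96 and XBP1 at 0.87.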

How the results depend on the processing

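Median-of-ratios scaling moved the median log2 change of all genes from 0.16 to 0 in NOMO-1, from -0.18 to 0.03 in MOLM-13, from 0.42 to -0.01 for the difference and from 0.29 to 0.03 between controls. Under it 3391 genes of the whole table were higher and 3716 lower in NOMO-1, and 3453 and 3769 in MOLM-13. Among the 35 genes it gave 21 higher and 2 lower in NOMO-1, 15 and 9 in MOLM-13, 18 and 0 for the difference, and 22 and 6 between controls. Quantile scaling gave 2 lower in NOMO-1, 15 higher in MOLM-13 and 6 lower between controls. With no filter 0 were lower in NOMO-1, and with MOLM-13 fitted alone 0 were higher and 6 lower there. The cause of these shifts was not tested. Leaving out 1 library in turn gave 0 to 2 lower in NOMO-1, 0 to 14 higher and 7 to 16 lower in MOLM-13, 16 to 33 with a larger effect in NOMO-1, and 1 to 5 lower between controls. Called in every alternative were 21 of 26 genes in NOMO-1, 6 of 20 in MOLM-13, 12 of 30 for the difference and 19 of 28 between controls. DERL1 in MOLM-13 passed with the opposite sign, -0.16, without shALKBH5 replicate 1 (0.39 without replicate 3), and SEC31A in MOLM-13 at 0.26 with both scalings. A replicate block in MOLM-13, where the controls and knockdown libraries share numbers, left all counts as they were (25 and 1, 9 and 11, 30 and 0, 25 and 3). The numbers gave no sign of pairing (correlation of deviations 0.0606 across genes), and NOMO-1 shares only 1 number. What depth limits cannot be read from TPM, and each group has 2 libraries.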
